A study of Mus musculus with 22 samples.

Results

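Fatty acid synthesis in the liver was followed through 10 genes: the enzymes Acly, Acaca, Acacb, Fasn, Scd1, Elovl6 and Me1, the regulatory protein gene Thrsp, and the transcription factor genes Srebf1 and Mlxipl. They were chosen by symbol, and all 10 were found among the 47729 gene lines of the count tables. RNA sequencing had been done on livers of male C57BL/6 mice with a knockout (KO) of Slc10a1, which encodes the bile acid importer NTCP of hepatocytes, and of wild-type (WT) mice of the same strain. The 6 groups were KO and WT at 4 weeks of age (3 and 3 livers), at 8 weeks (6 and 4 livers) and at 20 months (3 and 3 livers), 22 libraries in all, with no other allele or agent named. The labels do not say how the knockout was made, which part of the gene it removes, or how long the animals had been without food when the livers were taken. Nothing in them places the samples of a group in separate litters or cages, so the p-values measure the spread between these samples.

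De novo lipogenesis turns surplus carbohydrate into fatty acids in the cytosol of hepatocytes. ATP citrate lyase (Acly) makes acetyl-CoA from citrate, the acetyl-CoA carboxylases (Acaca and Acacb) make malonyl-CoA, and fatty acid synthase (Fasn) builds palmitate with NADPH that malic enzyme (Me1) helps to supply. Elovl6 lengthens palmitate and Scd1 introduces the double bond of oleate. Insulin acts on these genes largely through SREBP1 (from Srebf1) and glucose through ChREBP (from Mlxipl), and Thrsp encodes Spot 14, a thyroid hormone-responsive protein made with them.

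Libraries of 4 weeks held 5496425 to 6956124 counts in genes, those of 8 weeks 18950112 to 26066897 and those of 20 months 18032355 to 26789350. The file names give a paired-end layout at 4 weeks and a single-end layout at the later ages, so age and layout cannot be told apart. Slc10a1 itself stood at 108 to 253 CPM (counts scaled to library size with TMM factors) in KO and 591 to 701 CPM in WT livers at 4 weeks. It was at 49.4 to 93.8 in KO and 435 to 470 in WT at 8 weeks, and at 92.3 to 103 in KO and 154 to 370 in WT at 20 months, with no overlap at any age. Some libraries stood apart in genes outside this pathway. Arntl, a clock gene, was at 40.0 to 45.9 CPM in KO library 1 and WT library 1 of 4 weeks and in KO libraries 1 and 2 of 8 weeks, against 1.12 to 10.9 CPM in the other 18. The acute-phase gene Saa1 was at 47489 and 22339 CPM in WT libraries 1 and 2 of 20 months and at most 1365 CPM elsewhere. The summed level of 9 neutrophil markers was 3482 and 427 CPM in the same pair and 2.74 to 23.3 CPM in the others. The hepatocyte marker Alb was abundant in all 22 libraries (24440 to 146566 CPM). Of 10 adipocyte markers, 5 (Adipoq, Plin1, Lep, Retn, Ucp1) stayed under 1 CPM in all libraries, Lep at 0 counts in each. The summed level of the 10 was 55.4 to 4423 CPM, most of it from Car3 where it was high, which reached 4290 CPM, and Fabp4 reached 115 CPM. KO library 1 of 20 months had 14.72% of its counts outside genes, against 7.0% to 8.52% in the other 5 libraries of that age. In whole liver, fewer cells of a type and less RNA per cell cannot be told apart.

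In GRCm38, chromosome 5 carries Mlxipl (ENSMUSG00000005373) at 135089890 to 135138382 and Acacb (ENSMUSG00000042010) at 114146535 to 114250761. Chromosome 11 carries Fasn (ENSMUSG00000025153) at 120805846 to 120824547, Acaca (ENSMUSG00000020532) at 84129672 to 84401651, Acly (ENSMUSG00000020917) at 100476353 to 100528000 and Srebf1 (ENSMUSG00000020538) at 60199089 to 60222581. The rest are Elovl6 (ENSMUSG00000041220) at 129532355 to 129638495 on chromosome 3, Thrsp (ENSMUSG00000035686) at 97412938 to 97417730 on chromosome 7, Me1 (ENSMUSG00000032418) at 86581371 to 86695953 on chromosome 9 and Scd1 (ENSMUSG00000037071) at 44394455 to 44407879 on chromosome 19. All 10 are protein-coding.

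Promoters are printed for 4 genes to which the results below return: Mlxipl and Me1, in which every KO library lay below every WT library at 4 weeks, and Fasn and Thrsp, which were among the genes higher in WT livers at 8 weeks than at 4 weeks. Each is the 250 bases before a RefSeq transcription start (GRCm38.p6), read 5′ to 3′ on the gene's strand. Capitals mark matches on either strand to motifs known from such promoters. TCACNCCAC was searched as the sterol regulatory element (SRE). CACGTG was searched as the E-box. GGGCGG was searched as the GC box, and TATAAA as the TATA box. The letters of the fifth motif, CCAAT, are its name.
Mlxipl promoter 1, chr5:135106641-135106890, plus strand: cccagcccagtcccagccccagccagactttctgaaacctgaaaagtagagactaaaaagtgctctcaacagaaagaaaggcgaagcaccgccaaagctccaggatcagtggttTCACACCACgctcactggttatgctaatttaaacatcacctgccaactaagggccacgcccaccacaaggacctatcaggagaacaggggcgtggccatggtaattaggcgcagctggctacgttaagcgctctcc
Mlxipl promoter 2, chr5:135089640-135089889, plus strand: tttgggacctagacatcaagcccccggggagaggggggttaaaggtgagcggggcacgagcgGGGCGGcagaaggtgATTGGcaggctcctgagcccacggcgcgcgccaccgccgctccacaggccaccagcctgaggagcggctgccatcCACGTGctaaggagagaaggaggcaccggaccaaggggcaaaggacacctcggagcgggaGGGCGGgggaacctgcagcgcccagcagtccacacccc
Me1 promoter, chr9:86695915-86696164, minus strand: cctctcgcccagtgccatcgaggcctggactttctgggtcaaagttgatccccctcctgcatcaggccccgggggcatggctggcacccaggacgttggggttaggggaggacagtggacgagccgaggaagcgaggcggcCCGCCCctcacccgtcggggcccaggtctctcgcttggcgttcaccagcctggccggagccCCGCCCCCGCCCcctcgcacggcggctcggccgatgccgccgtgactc
Fasn promoter, chr11:120824548-120824797, minus strand: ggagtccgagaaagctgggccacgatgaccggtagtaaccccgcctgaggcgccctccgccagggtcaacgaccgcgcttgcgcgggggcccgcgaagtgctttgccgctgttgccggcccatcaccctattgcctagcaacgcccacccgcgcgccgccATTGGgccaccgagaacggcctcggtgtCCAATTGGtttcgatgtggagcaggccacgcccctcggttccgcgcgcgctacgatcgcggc
Thrsp promoter, chr7:97417551-97417800, minus strand: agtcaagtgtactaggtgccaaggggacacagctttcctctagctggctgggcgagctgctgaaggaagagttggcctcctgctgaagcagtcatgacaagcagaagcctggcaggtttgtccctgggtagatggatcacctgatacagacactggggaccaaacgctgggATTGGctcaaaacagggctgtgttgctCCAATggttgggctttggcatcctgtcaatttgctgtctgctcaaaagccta
Mlxipl has a pair of annotated starts. The 250 bases before the downstream one, promoter 1, hold the only SRE match among the promoters searched, those of all members but Scd1, at bases -136 to -128 before the start. Promoter 2, upstream, holds their only E-box match, at -98 to -93, with 1 CCAAT and 2 GC boxes. The SRE letters occur in 1.05% and the E-box letters in 6.02% of 32851 mouse promoters of this length. CCAAT is far more common, at 33.85%, and GC boxes reach 32.74% and TATA boxes 12.37%. Fasn has 3 CCAAT matches, a pair of which overlap, and Thrsp has 2. The Me1 promoter shown has 3 GC boxes. The stretch searched for Acacb holds a CCAAT and a TATA box and that for Acly 4 GC boxes. Those searched for Acaca and Elovl6 hold none of these letters. The Acaca and Acacb stretches lie inside the genes, downstream of the gene starts given above. The bases before those gene starts were not searched. A match is a description of the letters and was not tested as a binding site.

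Per kilobase of exon, Scd1 was the most abundant of the 10 transcripts in all 6 groups. Its mean was 73.8 CPM per kb in KO and 136 in WT livers at 4 weeks, 1607 in KO and 1232 in WT livers at 8 weeks, and 1580 in KO and 1430 in WT livers at 20 months. Scd1 made up 18.0% to 69.2% of the summed per-kb level in KO and 49.2% to 61.9% in WT livers at 4 weeks. At 8 weeks the share was 76.1% to 92.2% in KO and 75.4% to 85.5% in WT, and at 20 months 70.5% to 81.2% in KO and 77.4% to 92.9% in WT. Thrsp came next in 5 of the 6 groups, with 248 CPM per kb in KO and 156 in WT livers at 20 months. Acaca, with 17.07 kb of exon, was the lowest in 5 groups and shared the last place with Srebf1 in the KO livers of 8 weeks. The factor genes differed in abundance. Mlxipl ranked between the second and the fifth place and was at 10.9 CPM per kb in KO and 27.8 in WT livers at 4 weeks and at 83.3 in KO and 39.8 in WT livers at 20 months. Srebf1 ranked from the sixth place down and was at 3.21 in KO and 3.16 in WT at 4 weeks and at 21.0 in KO and 13.0 in WT at 20 months. Counts per gene do not separate the Srebf1 isoforms, nor the transcripts from the pair of annotated Mlxipl starts.

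**Figure D1:**
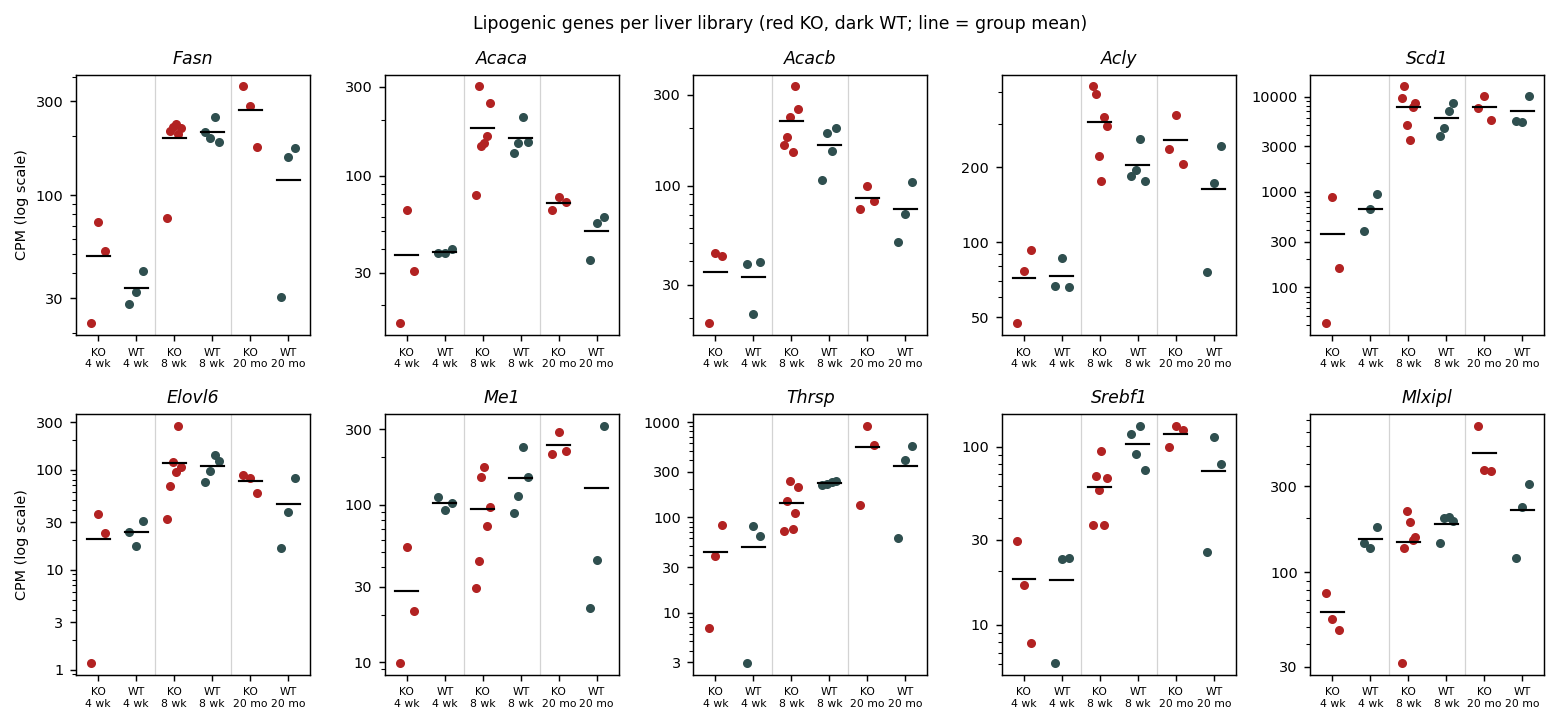
CPM of each of the 10 genes in every library (points; vertical axis on a log scale) in the 6 groups, KO left of WT at each age, with the group mean as a line. The 3 KO points of Mlxipl at 4 weeks (47.8 to 77.4 CPM) lie below all WT points (137 to 178 CPM), and at 20 months they lie above (363 to 651 against 121 to 311 CPM).

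The 4-week comparison asks how loss of NTCP bears on the lipogenic genes of young livers. Mlxipl, the gene of ChREBP, was lower in KO livers, while no enzyme of the pathway passed the test in either direction. Differences are given as log2 fold changes of KO over WT with their SE. Mlxipl stood at 77.4, 55.1 and 47.8 CPM in the KO livers and at 146, 137 and 178 CPM in the WT livers. The groups did not overlap, and the means were 60.1 ± 15.4 CPM in KO and 154 ± 21.7 CPM in WT (SD, n = 3 each). The KO level was 0.402 times that of WT, or -1.31 on the log2 scale (SE 0.23, adjusted p = 0.0129 by edgeR's quasi-likelihood test). Thus 1 of 10 members was called, where 10.8% of the 11144 genes tested were. Exons of Mlxipl overlap Gm43500 on the other strand, those of Me1 A330041J22Rik, those of Elovl6 Gm35986 and those of Srebf1 Rai1. The strand setting of the counting is not given in the sources used here, so reads of these 4 members and of their partners cannot be told apart. The call was lost without WT library 3 (adjusted p = 0.0723), without KO library 3 (0.0534) and in 1 fit of all 22 libraries (0.0634).

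Me1, the cytosolic malic enzyme, followed the same order without passing. It was at 9.91, 53.9 and 21.1 CPM in KO and at 111, 93.0 and 102 CPM in WT livers. All 3 KO livers lay below the narrow WT range, and KO library 1 was lowest. The change was -1.81 on the log2 scale (SE 0.51, adjusted p = 0.0531). In DESeq2 the adjusted p was 0.00373 and without a filter on low counts 1.38e-06, and it was 0.0264 without KO library 1 and 0.00603 without KO library 2. With other single libraries left out it reached 0.155. Mlxipl and Me1 were the 2 of 10 members with every KO library below every WT library, an order that 19.8% of all genes tested showed.

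Srebf1, the gene of SREBP1, did not follow Mlxipl. It was at 29.7, 16.7 and 7.90 CPM in KO and at 6.14, 23.5 and 23.7 CPM in WT livers (0.08 on the log2 scale, SE 0.55, adjusted p = 0.944). The highest and the next to lowest value of the 6 were both from KO livers. WT library 1, in which Srebf1 was lowest, was one of the libraries with high Arntl.

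Among the enzymes, Acly, which starts the pathway, was at 47.2, 76.4 and 92.7 CPM in KO and at 66.5, 86.4 and 66.2 CPM in WT livers (log2 fold change 0.02, SE 0.26). Acaca was at 16.0, 65.2 and 30.7 CPM in KO and at 38.2, 38.1 and 40.1 CPM in WT livers (-0.02, SE 0.43). The KO livers lay on both sides of WT livers that for Acaca differed by less than 3 CPM. Acacb, the carboxylase of the mitochondrial surface, was at 18.8, 44.0 and 42.5 CPM in KO and at 38.5, 21.1 and 39.5 CPM in WT livers (0.12, SE 0.36). Fasn was at 22.3, 72.8 and 52.1 CPM in KO and at 27.9, 32.1 and 41.4 CPM in WT livers (0.58, SE 0.38, adjusted p = 0.352). For Fasn the highest KO libraries exceeded all WT libraries and KO library 1 lay below them; without KO library 1 Fasn was called higher (0.94, adjusted p = 0.0228).

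The desaturase and the elongase spread more widely. Scd1 was at 41.8, 882 and 160 CPM in KO and at 392, 656 and 951 CPM in WT livers (-0.83, SE 0.87, adjusted p = 0.565), and the KO livers differed 21.1-fold among themselves. Elovl6 was at 1.18, 36.4 and 23.5 CPM in KO and at 24.0, 17.2 and 30.6 CPM in WT livers (-0.20, SE 0.77). The lowest KO value rests on 7 counts. Scd1 was called lower without KO library 2 (-2.67, adjusted p = 0.0362). Thrsp was at 6.89, 39.2 and 83.3 CPM in KO and at 2.98, 80.4 and 64.0 CPM in WT livers (-0.15, SE 0.99); here the lowest value of each genotype came from the library with high Arntl.

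KO library 1 of 4 weeks was low in most of the pathway but not in its SREBP gene. Of the 10 genes, 9 lay below the WT mean of the age, with a median deviation of -1.13 on the log2 scale, while its Srebf1 was the highest of the 6 livers. Its Alb level was 27072 CPM, against 100406 to 142109 CPM in the other 5 livers of 4 weeks, and its Igfbp1, a gene induced by fasting, was at 7940 CPM. Alb does not stand for all hepatocyte markers. Of 9, 4 (Cps1, Tat, Apoc3 and Fgb) were higher in every KO liver, this one included, than in every WT liver. Over the 3 KO livers, 5 of the 9 changes were above 0 and 4 below. The part of these levels in those of the pathway was not tested. Without KO library 1 and the WT library of high Arntl, 3 of 10 members were called. Mlxipl and Me1 were lower, and Fasn higher (log2 fold change 0.83, adjusted p = 0.0272). The same fit called 23.5% of all genes tested, so this count is near the background.

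Genes around the pathway were read from lists of known function. Of 16 genes of ChREBP partners, targets and sugar entry, 2 rose and 3 fell. Gcgr, the glucagon receptor, was among those that fell (log2 fold change -1.28, SE 0.20, adjusted p = 0.00933). Txnip and Klf10, both known to be induced by glucose through ChREBP, rose in the same livers (2.28, SE 0.33, and 2.41, SE 0.45; adjusted p = 0.00689 and 0.0151). Txnip was at 872, 386 and 724 CPM in KO and at 117, 124 and 176 CPM in WT livers. The ChREBP target Pklr, liver pyruvate kinase, gave -0.10 (SE 0.32) and its partner Mlx -0.00 (SE 0.28), neither past the threshold. The median of the list was 0.10, against 0.005 over all genes tested.

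Genes that feed or steer the pathway moved singly. In the list of citrate, acetyl-CoA and NADPH supply 1 of 11 rose, Acss2, the cytosolic acetyl-CoA synthetase (0.67, SE 0.18, adjusted p = 0.0468). Slc25a1, the citrate carrier, gave -0.83 (SE 0.25, adjusted p = 0.0674), and the pentose phosphate genes G6pdx and Pgd gave 0.07 (SE 0.30) and 0.21 (SE 0.20). Among 19 genes of SREBP and carboxylase control only Mid1ip1 was called. It encodes a Spot 14 relative that promotes polymerization of acetyl-CoA carboxylase, and was at 12.6, 7.84 and 10.2 CPM in KO and at 2.42, 4.39 and 3.66 CPM in WT livers (1.58, SE 0.31, adjusted p = 0.0188). Insig1, Insig2 and Nr1h3 (the liver X receptor) gave 0.67, 0.42 and -0.27 and did not pass.

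Of 13 other desaturases and elongases tested, 1 was called, Elovl3, an elongase of very long chains (-8.23, SE 0.55, adjusted p = 1.50e-04), at 0.168 to 0.427 CPM in KO and 59.7 to 133 CPM in WT livers. None of 15 genes of triglyceride synthesis and lipid droplets passed, nor did any of 9 liver X receptor targets outside the pathway; Gpam, which starts glycerolipid synthesis, gave 0.66 (SE 0.37) and Abcg5, a sterol exporter, -0.04 (SE 0.28). Cholesterol synthesis, the branch driven mainly by SREBP2, had 4 of 18 genes higher and none lower, with a median of 1.14, among them Lss (1.50) and Dhcr7 (1.08). Of 18 fasting genes 3 rose and 1 fell: Igfbp1 gave 3.58 (adjusted p = 0.00434), Ppargc1a, a coactivator of gluconeogenesis, 1.60 (0.00366), and Vnn1, a PPAR-alpha target, -4.61 (0.0153). Igfbp1 was at 2347 to 7940 CPM in KO and 336 to 464 CPM in WT livers. The median of the fasting list was -0.32, with 8 changes above 0 and 10 below. The summed level of 11 macrophage markers was 448 to 700 CPM in KO and 758 to 913 CPM in WT livers at this age, with 3 markers lower (among them Clec4f and Csf1r) and Marco higher. Endothelial markers summed to 178 to 245 CPM in KO and 281 to 331 CPM in WT livers, with Cdh5 and Clec4g lower. Stellate cell markers summed to 339 to 469 CPM in KO and 235 to 300 CPM in WT livers, with Dcn higher. Most of this sum was Dcn (means 337 CPM in KO and 178 CPM in WT livers). Of 5 stellate markers tested, 3 changes were above 0 and 2 below, and Colec11 was lower in every KO liver. Cholangiocyte markers summed to 17.1 to 26.5 CPM in KO and 34.9 to 40.6 CPM in WT livers. Most of that was Spp1 (means 16.1 CPM in KO and 32.6 CPM in WT livers). Sox9 ran the other way, with means of 3.03 CPM in KO and 1.43 CPM in WT livers. None of these 4 sums overlapped between KO and WT, and their part in the differences above was not tested.

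**Figure D2:**
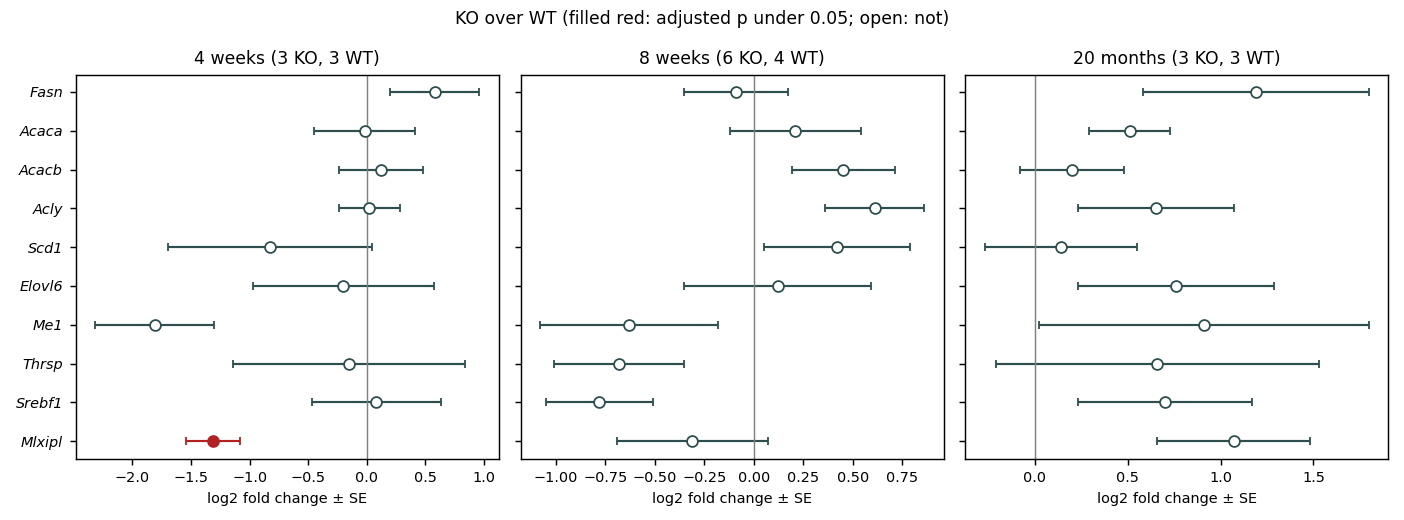
Log2 fold change of KO over WT (horizontal axis; bars are SE) of the 10 genes at 4 weeks, 8 weeks and 20 months, filled where the adjusted p was under 0.05. Mlxipl at 4 weeks (-1.31) is the only filled point, and at 20 months all 10 points lie right of 0.

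At 8 weeks no member passed the test, in either direction, and KO and WT livers overlapped for all 10. Only 4 of 14522 genes (0.0275%) were called in this comparison by edgeR, 1517 had an unadjusted p under 0.05, and DESeq2 called 109 genes and no member. The 10 log2 fold changes had a median of 0.01, with 5 above and 5 below 0.

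Srebf1 had the smallest p of the members. It ran over 36.2, 61.7 and 94.0 CPM (lowest, median and highest of 6 KO livers), against 118, 90.3, 131 and 74.2 CPM in the 4 WT livers. Of the KO livers only the highest reached into the WT range, and the log2 fold change was -0.78 (SE 0.27, unadjusted p = 0.0145, adjusted p = 0.474). Mlxipl ran over 31.6, 155 and 220 CPM in KO and was at 146, 200, 202 and 194 CPM in WT livers (-0.31, SE 0.38). Its lowest KO value, that of KO library 1, stood far below the next.

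Of the enzymes, Acly ran over 177, 306 and 423 CPM in KO and was at 185, 195, 260 and 176 CPM in WT livers (0.61, SE 0.25, unadjusted p = 0.0353, adjusted p = 0.474). Acacb ran over 151, 206 and 333 CPM in KO and was at 107, 190, 153 and 202 CPM in WT livers (0.45, SE 0.26). Both leaned toward higher KO values with overlapping groups. Scd1 ran over 3494, 8129 and 12784 CPM in KO and was at 3840, 4668, 7058 and 8532 CPM in WT livers (0.42, SE 0.37). Acaca ran over 78.2, 157 and 302 CPM in KO and was at 133, 149, 206 and 151 CPM in WT livers (0.21, SE 0.33), and Elovl6 over 32.2, 100 and 277 CPM in KO, against 76.2, 98.0, 142 and 122 CPM in WT livers (0.12, SE 0.47). In each of these the KO range enclosed the WT range.

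Fasn ran over 76.7, 217 and 230 CPM in KO and was at 210, 195, 250 and 186 CPM in WT livers (-0.09, SE 0.26), so that 5 KO livers fell among the WT values and KO library 1 stood alone. Me1 ran over 29.7, 85 and 172 CPM in KO and was at 88.8, 114, 233 and 150 CPM in WT livers (-0.63, SE 0.45). Thrsp ran over 72.0, 130 and 238 CPM in KO livers, while the WT livers at 221, 226, 236 and 239 CPM differed by a coefficient of variation of 3.64% (log2 fold change -0.68, SE 0.33, adjusted p = 0.486). The coefficient of variation of Thrsp over the KO livers was 48.5%.

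KO library 1 of 8 weeks combined low and high members. In it 7 of the 10 genes lay more than 1 log2 unit below the WT mean, with Mlxipl at 31.6, Me1 at 29.7 and Fasn at 76.7 CPM, yet Acly at 423 CPM was the highest of the 10 livers and Scd1 at 9608 CPM stood above all WT livers. The same library had high Arntl, 7797 CPM of Igfbp1 and 1408 CPM of Txnip. KO library 2, also high in Arntl, had the highest Scd1 (12784 CPM) and Acaca (302 CPM). Without both libraries again no member was called.

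The KO livers of 8 weeks also split in summed levels of cell type markers. Hepatocyte markers summed to 143588 to 194764 CPM in KO libraries 1, 2, 5 and 6, to 83172 and 68632 CPM in KO libraries 3 and 4, and to 75940 to 87737 CPM in WT livers. Macrophage markers summed to 816 to 1011 CPM in the same 4 KO livers, to 429 and 430 CPM in KO libraries 3 and 4, and to 445 to 632 CPM in WT livers. Stellate cell markers were at 522 to 696 CPM in the 4 and at 259 and 346 CPM in KO libraries 3 and 4. WT livers were at 268 to 382 CPM. Most of each hepatocyte sum was Alb, at 47011 to 146566 CPM over the 6 KO livers. Ttr, Apoc3 and Serpina1a differed at most 1.51-fold among these 6, and Tat 15.9-fold. The macrophage markers also spread unequally over the 6 KO livers. Marco ran from 4.10 to 225 CPM and Cd5l from 73.5 to 264 CPM. Csf1r ran from 63.4 to 88.7 CPM and Lyz2 from 51.0 to 66.4 CPM. Most of the stellate sum was Dcn (113 to 397 CPM) and Reln (92.4 to 242 CPM). A difference in these sums is therefore not read as a difference in cell number. Scd1 was at 7678 to 12784 CPM in the 4 and at 5023 and 3494 CPM in KO libraries 3 and 4, and Acly at 293 to 423 CPM in the 4 and at 222 and 177 CPM in the pair. Me1 ran the other way, at 29.7 to 97.0 CPM in the 4 and at 150 and 172 CPM in the pair. Mlxipl and Fasn were also lower in the 4 than in the pair. For Fasn the margin was small, with log2 deviations from the WT mean of at most 0.074 in the 4 and 0.095 and 0.14 in the pair. Acaca, Acacb, Elovl6, Thrsp and Srebf1 did not separate. The share of all genes that split in this way is not given here. The part of the marker split in these levels was not tested.

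None of the 17 other lists had a called gene at this age. Among genes beside the pathway, Insig2 gave 1.59 (SE 0.52, adjusted p = 0.474), Pnpla3 1.06 (SE 0.57) and Pgd 0.45 (SE 0.18), none past the threshold. The cholesterol synthesis list had 17 of 19 log2 fold changes above 0 and a median of 0.47.

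**Figure D3:**
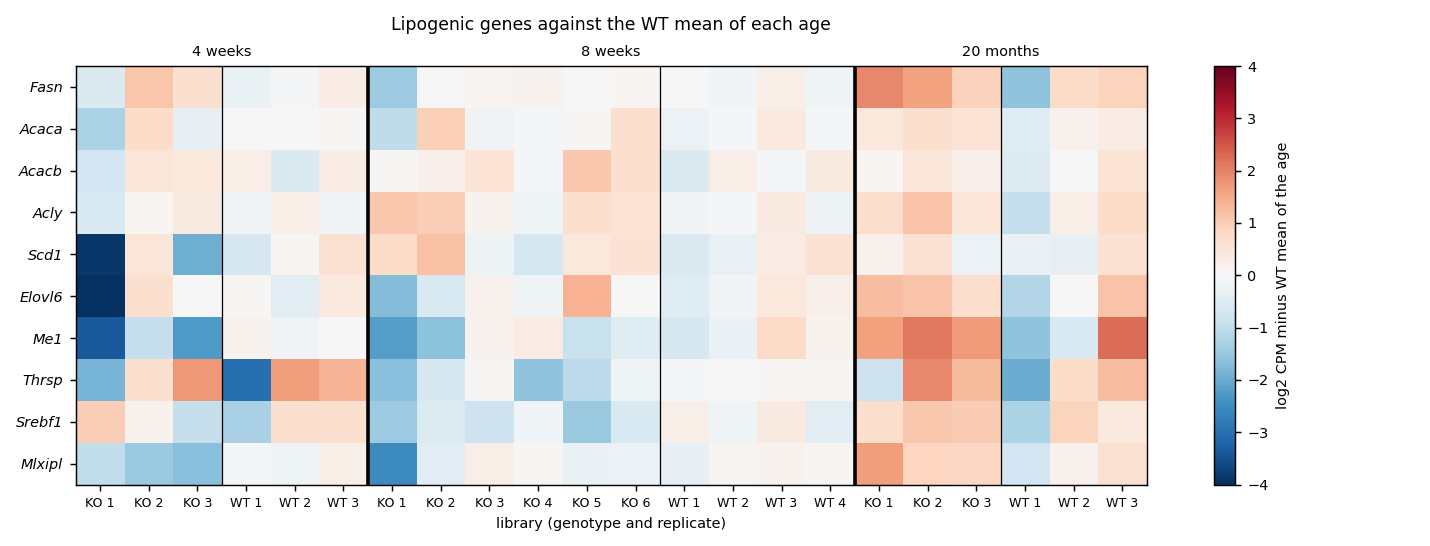
Log2 CPM of each gene (rows) in each library (columns, KO left of WT within an age) minus the WT mean of that age, red for higher and blue for lower, with colours ending at 4 log2 units. KO library 1 is mostly blue at 4 and at 8 weeks, as is WT library 1 at 20 months (10 of 10 genes below the WT mean).

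At 20 months all 10 log2 fold changes were above 0, with a median of 0.68 against -0.003 over all genes tested, but no member passed. The comparison called 0 of 13966 genes (0%) in edgeR, with 772 at an unadjusted p under 0.05, and DESeq2 called 53 genes, none of them a member. In 3 of the 10 members, Fasn, Acaca and Mlxipl, every KO library lay above every WT library, an order that 5.64% of all genes tested showed.

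Mlxipl was at 651, 371 and 363 CPM in KO and at 121, 230 and 311 CPM in WT livers, with means of 461 ± 164 and 221 ± 95.3 CPM (SD, n = 3 each) for KO and WT. The groups did not overlap, in the opposite order to that at 4 weeks (log2 fold change 1.07, SE 0.41, unadjusted p = 0.0344, adjusted p = 0.821). KO library 1, highest in Mlxipl and in Fasn, was the one with the most counts outside genes, and without it Mlxipl gave 0.72 and Fasn 0.93. Srebf1 was at 99.3, 131 and 124 CPM in KO and at 25.7, 113 and 80.0 CPM in WT livers (0.70, SE 0.47). Fasn was at 357, 284 and 176 CPM in KO and at 30.3, 156 and 173 CPM in WT livers (1.19, SE 0.61, adjusted p = 0.821), where the lowest KO and the highest WT liver nearly met. Acaca was at 65.6, 76.5 and 72.2 CPM in KO and at 35.3, 55.5 and 60.0 CPM in WT livers (0.51, SE 0.22, unadjusted p = 0.0531). Its KO livers were close together, with a coefficient of variation of 7.63%.

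The other members overlapped. Acly was at 238, 326 and 207 CPM in KO and at 75.8, 173 and 244 CPM in WT livers (0.65, SE 0.42), and Acacb at 75.5, 99.5 and 82.8 CPM in KO and at 50.2, 70.6 and 104 CPM in WT livers (0.20, SE 0.28). Scd1 was at 7498, 10023 and 5674 CPM in KO and at 5601, 5346 and 10035 CPM in WT livers (0.14, SE 0.41). WT library 3 matched or exceeded the highest KO liver in Scd1 and Acacb. Elovl6 was at 88.4, 82.9 and 59.0 CPM in KO and at 16.6, 37.6 and 82.6 CPM in WT livers (0.76, SE 0.53). Thrsp was at 136, 916 and 577 CPM in KO and at 61.1, 399 and 566 CPM in WT livers (0.66, SE 0.87). Both spread widely in WT livers, as did Me1, at 209, 291 and 219 CPM in KO and at 21.9, 44.2 and 317 CPM in WT livers (0.91, SE 0.89). Without WT library 3, Me1 was called higher in KO livers (2.86, adjusted p = 0.0413).

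The WT liver of 20 months that was lowest in these genes also had the most acute-phase transcripts. WT library 1 had all 10 genes below the WT mean, with a median deviation of -1.06 log2 units, and WT library 3 had all 10 above it (0.66). The summed level of 15 acute-phase genes was 15679 to 16487 CPM in the KO livers, and 167274, 94183 and 14674 CPM in WT libraries 1, 2 and 3. WT library 2, with high acute-phase transcripts as well, had 7 of the 10 genes above the WT mean (median deviation 0.17). The part of these transcripts in the pathway's levels was not tested. All 15 acute-phase log2 fold changes were below 0 (median -1.67), as were all 8 of the neutrophil markers tested (median -6.81), and none passed. Summed macrophage markers were 375 to 844 CPM in KO and 449 to 1738 CPM in WT livers. Hepatocyte markers summed to 76870 to 98472 CPM in KO and 63181 to 74717 CPM in WT livers, without overlap. Alb alone was at 48052 to 64718 CPM in KO and 24440 to 44074 CPM in WT livers. Of the 9 hepatocyte markers 7 had changes above 0 and 2 below, none called. Their part in the pathway's levels was not tested. With WT libraries 1 and 2 both left out, which leaves 1 WT liver assumed to vary like the KO livers, 5 members turned round: Acacb gave -0.29, Scd1 -0.39, Elovl6 -0.11, Me1 -0.42 and Thrsp -0.07. Of genes beside the pathway, Pklr gave 1.11 (SE 0.59) with all KO livers above all WT livers, Pnpla3 2.86 (SE 1.05, adjusted p = 0.821) and G6pdx -1.12 (SE 0.77). None of the 17 other lists had a called gene.

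**Figure D4:**
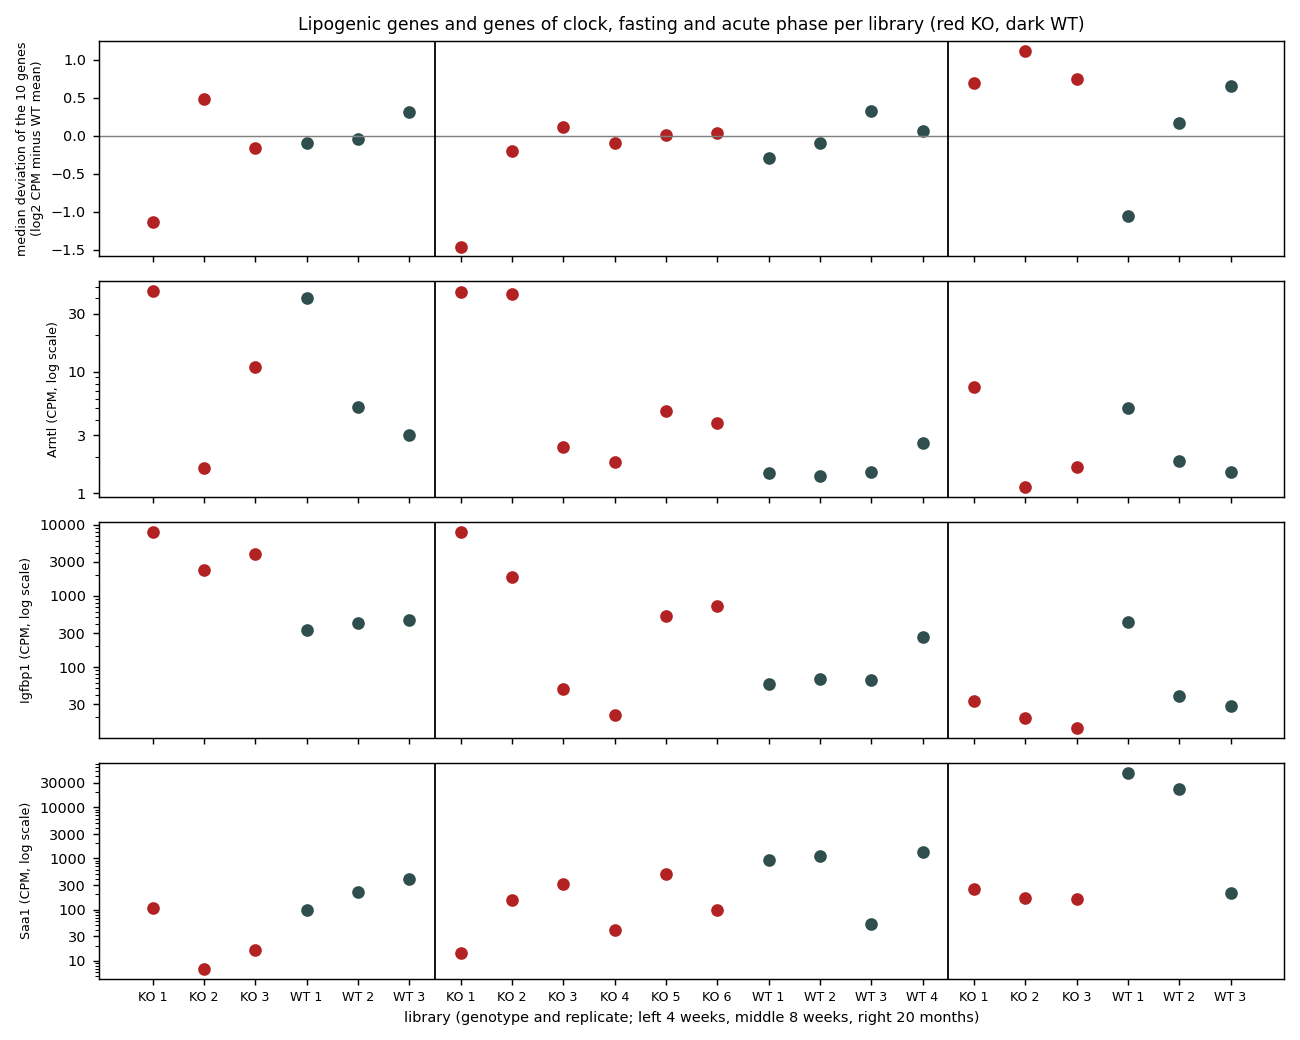
Per library, from top to bottom: the median deviation of the 10 genes from the WT mean of the age (log2), and the CPM of Arntl, Igfbp1 and Saa1 on log scales, with KO left of WT within each age. The lowest medians, -1.46 (KO library 1, 8 weeks), -1.13 (KO library 1, 4 weeks) and -1.06 (WT library 1, 20 months), fall in libraries with high Arntl and Igfbp1 or high Saa1, while WT library 1 of 4 weeks (-0.09) and KO library 2 of 8 weeks (-0.20), also high in Arntl, and WT library 2 of 20 months (0.17), also high in Saa1, lie near the WT mean.

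All 22 libraries were fitted together to ask whether the KO effect differed between ages. Mlxipl was the member that did: its KO-over-WT change was 2.39 log2 units higher at 20 months than at 4 weeks (SE 0.63, adjusted p = 0.0380), with KO below WT in all pairs of livers at 4 weeks and above in all pairs at 20 months. It was 1 of 10 members called in that contrast, which called 4.52% of 15877 genes. The call was lost in 11 of the 22 fits that left out 1 library (adjusted p up to 0.0955). In the joint test of the 3 ages Mlxipl gave an adjusted p of 0.0949 and no member was called, against 1.62% of genes. It passed there in DESeq2 (0.0228), without KO library 1 of 8 weeks (0.0125), without WT library 3 of 20 months (0.0454) and without the 6 libraries that stood apart (0.0328), where 1 WT liver of 20 months is left and is assumed to vary like the other groups.

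Between 8 and 4 weeks no member was called (0.328% of genes were), nor between 20 months and 8 weeks (0% of genes, 1798 at an unadjusted p under 0.05, 143 called by DESeq2). Between 20 months and 8 weeks Srebf1 gave 1.48 (SE 0.64, unadjusted p = 0.0307), Mlxipl 1.38 (SE 0.56, 0.0228) and Fasn 1.29 (SE 0.62, 0.0492), with adjusted p of 0.392, 0.36 and 0.439. Me1 had a difference of 2.72 (SE 1.08, adjusted p = 0.14) between 20 months and 4 weeks, and passed without WT library 3 of 20 months (4.68, adjusted p = 0.00755).

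In WT livers 8 of the 10 genes were higher at 8 weeks than at 4 weeks, and Me1 and Mlxipl were not called. Differences are log2 fold changes of the later over the earlier age. The comparison called 53.2% of 14003 genes and 27.5% as higher, and the median of the 10 members was 2.19 against 0.045 over all genes. Age cannot be told apart from library layout here, nor from a difference of sequencing run, if there was one. Scd1 was 8.91 times as high (6025 ± 2158 CPM at 8 weeks, n = 4, and 666 ± 279 CPM at 4 weeks, n = 3; log2 fold change 3.16, SE 0.36, adjusted p = 5.48e-05). Fasn gave 2.61 (SE 0.16, adjusted p = 1.19e-06), at 186 to 250 CPM at 8 weeks and 27.9 to 41.4 CPM at 4 weeks. Srebf1 gave 2.51 (SE 0.37), Acacb 2.28 (SE 0.26), Thrsp 2.21 (SE 0.64), Elovl6 2.17 (SE 0.24), Acaca 2.02 (SE 0.15) and Acly 1.46 (SE 0.16). In each of these 8 genes all 8-week livers exceeded all 4-week livers, an order that 30.2% of all genes tested showed. Mlxipl was at 146 to 202 CPM at 8 weeks and 137 to 178 CPM at 4 weeks (0.25, SE 0.13, adjusted p = 0.14), and Me1 at 88.8 to 233 CPM at 8 weeks and 93.0 to 111 CPM at 4 weeks (0.49, SE 0.27, adjusted p = 0.149). Leaving out WT library 1 of 8 weeks brought both past the threshold (Mlxipl 0.34, adjusted p = 0.039; Me1 0.67, adjusted p = 0.0357), and Thrsp did not pass in the fit of all 22 libraries (2.20, adjusted p = 0.0629). Beside them, 17 of 19 cholesterol synthesis genes were higher and 14 of 18 fasting genes lower at 8 weeks.

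The carboxylases were the members called lower in WT livers at 20 months relative to 8 weeks. The sample labels used here name no sequencing run, and age cannot be told apart from a difference of run, if there was one. Counts outside genes were 15.39% to 17.78% in the WT libraries of 8 weeks and 7.0% to 8.52% in those of 20 months. Acaca was at 35.3, 55.5 and 60.0 CPM at 20 months and at 133, 149, 206 and 151 CPM at 8 weeks (log2 fold change -1.71, SE 0.23, adjusted p = 5.08e-04). Acacb was at 50.2, 70.6 and 104 CPM at 20 months and at 107, 190, 153 and 202 CPM at 8 weeks (-1.16, SE 0.30, adjusted p = 0.0118). They were 2 of 10 members called, where 54.5% of 14322 genes were called and 26.8% as lower. Elovl6 (-1.31, SE 0.49, adjusted p = 0.0532) and Fasn (-0.86, SE 0.51, adjusted p = 0.182) did not pass, though Elovl6 was called lower in DESeq2 (adjusted p = 0.0188), without a filter on low counts (0.0364) and without WT library 3 of 20 months (-2.11, adjusted p = 0.00253). With other single livers left out its adjusted p reached 0.154. Scd1 (0.17), Thrsp (0.52), Mlxipl (0.20), Acly (-0.36), Srebf1 (-0.55) and Me1 (-0.24) did not pass. Without the WT libraries of high acute-phase genes 1 WT liver of 20 months is left, assumed to vary like the 8-week livers, which alone give the spread. In that fit Acacb gave -0.63 (adjusted p = 0.127), Thrsp 1.31 (adjusted p = 5.03e-05) and Mlxipl 0.76 (adjusted p = 0.00637). In KO livers, where ages were not compared by a test, Acaca averaged 71.4 CPM at 20 months and 180 CPM at 8 weeks. Acacb averaged 86.0 CPM at 20 months and 219 CPM at 8 weeks in KO livers.

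**Figure D5:**
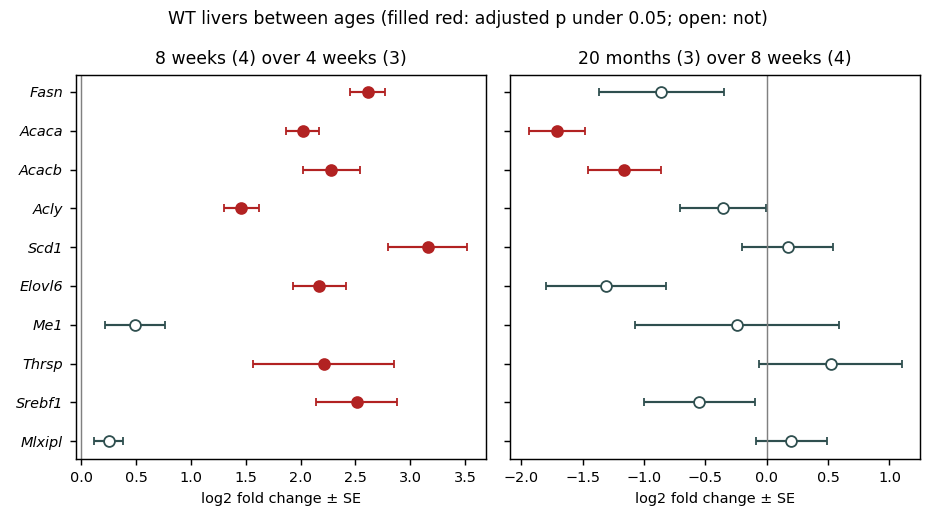
Log2 fold change between ages in WT livers (horizontal axis; bars are SE) of the 10 genes, filled where the adjusted p was under 0.05. On the left, 8 genes are filled at 1.46 to 3.16; on the right only Acaca (-1.71) and Acacb (-1.16) are filled.

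Taking the 6 groups in order of their means, the 4-week groups were the lowest pair for 8 genes. For Me1 and Mlxipl the order ran differently, with KO at 4 weeks lowest, then KO at 8 weeks, WT at 4 weeks, and KO at 20 months highest. Most neighbours in these orders overlapped. For Fasn, Acly, Elovl6, Me1 and Thrsp all 5 neighbouring pairs did. Scd1 had 1 break, between WT at 8 weeks and WT at 4 weeks, Srebf1 had 1, between KO at 8 weeks and KO at 4 weeks, and Mlxipl had 1, between KO and WT at 20 months. Acaca separated between KO and WT at 20 months and between KO at 20 months and WT at 8 weeks. Acacb separated between KO at 4 weeks and WT at 20 months and between KO at 20 months and WT at 8 weeks.

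Within groups most pairs of the 10 genes were positively correlated. Over the 22 libraries, with each group's mean removed from log2 CPM, 40 of 45 pairs of members had a positive correlation, with a median r of 0.44. The highest was that of Acacb and Elovl6 (0.81) and the lowest that of Acacb and Srebf1 (-0.28). These libraries share depth and composition effects, and the figures are descriptions. They are given without the share of positive pairs over all genes, so they are not read as a trait of the pathway. The regulators were then set against the 8 other genes, 16 pairs in all, and no pair passed after adjustment. Mlxipl with Fasn gave Pearson's r = 0.65 (permutation p = 0.0266, adjusted p = 0.213) and Spearman's rho = 0.61 (p = 0.0159, adjusted p = 0.255). Mlxipl with Me1 gave r = 0.57 (permutation p = 0.0218, adjusted p = 0.213) and rho = 0.45 (p = 0.0798, adjusted p = 0.533). Without the 2 libraries farthest in Mlxipl, KO library 1 of 8 weeks and WT library 1 of 20 months, r was 0.28 with Fasn and 0.36 with Me1. Leaving them out also narrows the range of Mlxipl, so the lower r cannot tell whether both relations rest on those samples. With the 4-week libraries left out both passed, at r = 0.81 and 0.70 (adjusted p = 0.0177 each). Srebf1 had its highest r with Fasn (0.42, permutation p = 0.202, adjusted p = 0.643; rho 0.43) and with Thrsp (0.41, p = 0.241, adjusted p = 0.643; rho 0.32), which were 0.18 and -0.00 without the 2 farthest libraries.

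The genes whose within-group pattern was most like the mean of the 10 members, among 8082 genes compared over 22 libraries, were Notum (r = 0.89), Galm (0.88), and Cyb5r3, Ces1e, Ndufs8, Rgn, Apoc4 and Fam47e (each 0.87). For single members the nearest genes were Ocel1 for Mlxipl (0.93), Ldah for Me1 (0.91), Palmd for Elovl6 (0.92), Plekha6 for Fasn (0.89), Fam213a for Scd1 (0.88), Zfyve21 for Srebf1 (0.88), Gcat for Thrsp (0.88), Ebp for Acly (0.86), Nr5a2 for Acaca (0.84) and 4732465J04Rik for Acacb (0.81). Ebp is an enzyme of cholesterol synthesis. The part of shared library quality in this likeness was not tested.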

How the data were processed

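Each liver has 1 deposited table of unnormalized counts by Ensembl gene. The submitters' processing notes name HISAT2 2.0.4, HTSeq 0.6.1p1 and the build GRCm38; which annotation release and strand setting were used is not given in the sources used here. Of the 47729 genes, 47224 took a symbol and an exon length from GENCODE M21. The 505 without one stayed in the fits, and the 5 summary lines per table stayed out.

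Groups were taken from the labels. With edgeR 4.0.16 in R 4.3.3, low genes were dropped by filterByExpr and TMM factors applied. KO and WT of each age were fitted alone with the 2-sided quasi-likelihood F-test, adjusted by Benjamini-Hochberg over all genes tested with a threshold of 0.05. Differences of the KO effect between ages came from 1 fit of 22 libraries. The SE is the log2 fold change divided by the square root of F. Correlations used log2 CPM (prior count 2) minus group means and 100000 permutations within groups, 2-sided, adjusted over 16 pairs. Alternatives were DESeq2 1.42.0, size factors by RLE, no filter, a replicate block and single libraries left out; leaving out the libraries that stood apart was added after seeing the data. Depth limits precision most at 4 weeks. The edgeR fits of KO against WT at each age were tested on simulated counts. These had the same spread for every gene and no library that stood apart. The other tests were not simulated. Libraries of 1 group differed by a chi-square per degree of freedom of at least 8.34, so none was counted as a repeat.

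The 10 members and the 17 other gene lists were chosen with earlier results of these data known. Named are all members, up to 3 called genes of each list with the smallest adjusted p per comparison of KO with WT, 13 further genes whatever their result, and the 8 genes most like the members' mean and 3 most like each member, of which the text prints the nearest. A few genes that this rule names are not reported here. Per kb means per kilobase of merged exons.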

Additional observations from a re-analysis of the deposited data

Results flagged for a closer look

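In groups of 4 to 10 livers, 3 of 20 combinations of gene and group held a liver whose gap to its nearest neighbour was large for the group's range, where chance gives about 1 in 20. Fasn was at 76.7 CPM in KO library 1 of 8 weeks, below the other 5 KO livers. Elovl6 was at 277 CPM in KO library 5 of 8 weeks, above the other 5 KO livers. Mlxipl was at 146 CPM in WT library 1 of 8 weeks, below the other 3 WT livers. The KO effect on Mlxipl differed between 20 months and 4 weeks by 2.39 log2 units, by the test of the difference itself, a call lost in 11 of the 22 fits that left out 1 library, and every KO liver lay below every WT liver at 4 weeks and above every WT liver at 20 months.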

How the results depend on the processing

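With single libraries left out, at 4 weeks the number of genes called lay between 184 (without WT 3) and 2012 (without KO 1), and of members between 0 (without WT 3 or KO 3) and 3. With 1 library less, members that were not called changed sign there: Acaca ran from -0.69 to 0.36, Acacb from -0.12 to 0.44, Acly from -0.18 to 0.26, Elovl6 from -0.95 to 0.38, Thrsp from -1.03 to 0.40 and Srebf1 from -0.47 to 0.45. At 8 weeks 1 to 5 genes were called, and Fasn ran from -0.15 to 0.07, Acaca from -0.01 to 0.36 and Elovl6 from -0.36 to 0.31. At 20 months 0 to 71 genes and 0 to 1 members were called (71 and 1 without WT 3), and Acacb ran from -0.02 to 0.51 and Scd1 from -0.07 to 0.50. Between 20 months and 8 weeks in WT livers 2 to 5 members were called (5 without WT 1 of 20 months, 4 without WT 3), and Scd1 ran from -0.21 to 0.38, Me1 from -2.23 to 0.29, Thrsp from -0.10 to 1.01 and Mlxipl from -0.17 to 0.49. For the KO effect between ages, 26 to 1081 genes and 0 to 2 members were called jointly, 8 to 270 genes for 8 against 4 weeks, 0 to 517 genes and 0 to 1 members for 20 months against 8 weeks, and 164 to 1405 genes and 0 to 2 members for 20 months against 4 weeks.

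Leaving out the libraries that stood apart, chosen after seeing the data, called 2652 genes and 3 members at 4 weeks and turned Acaca to 0.36, Elovl6 to 0.39 and Srebf1 to -0.87; at 8 weeks it turned Fasn to 0.07. At 20 months it turned Acacb to -0.29, Scd1 to -0.39, Elovl6 to -0.11, Me1 to -0.42 and Thrsp to -0.07, and between 20 months and 8 weeks in WT livers Acly to 0.27 and Me1 to 1.13. It called 401 genes and 1 member jointly, 623 genes and 1 member (Mlxipl, 1.56) for 8 against 4 weeks, and gave Me1 -0.17 for 20 months against 8 weeks. DESeq2 called 2 members at 4 weeks, 109 genes at 8 weeks, 53 at 20 months, 1226 genes and 1 member jointly, and 381, 143 and 1556 genes for 8 against 4 weeks, 20 months against 8 weeks and 20 months against 4 weeks. Without a filter 2048 genes and 2 members were called at 4 weeks, and 18, 14 and 404 genes in the same 3 contrasts; RLE factors called 30 genes for 8 against 4 weeks. The fit of all 22 libraries called 0 members at 4 weeks. Same-numbered KO and WT libraries did not pair (correlations of deviations -0.327 to 0.458, not all above 0.1 at any age, and not every sample correlated best with its own number). With a replicate block 537 genes were called at 4 weeks, 0 at 8 weeks, 7 jointly, and 2, 1 and 122 in the 3 contrasts, with 0 members in the last, where Mlxipl gave 2.43 (adjusted p = 0.0879). Acly and Thrsp at 4 weeks turned to -0.02 and 0.10, and Acaca and Elovl6 at 8 weeks to -0.08 and -0.58 under the block.

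Among correlations, leaving out an age turned Srebf1 with Acacb to 0.00 and with Elovl6 to 0.28 and passed 2 pairs (no 4-week libraries), Srebf1 with Scd1 to 0.00 and Mlxipl with Acly to 0.36 and with Thrsp to -0.01 (no 8-week libraries), and Srebf1 with Acly to -0.37 (no 20-month libraries). The causes were not tested. Of 939 alternative values for members and pairs, 839 kept direction and side of the threshold. Depth limits the low genes at 4 weeks, such as Elovl6 at 7 counts in KO 1.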
